A study of Mus musculus with 6 samples.

Results

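The AP-1 Fos and Jun family was followed as 7 genes, Fos, Fosb, Fosl1, Fosl2, Jun, Junb and Jund, of the 31053 genes in each single-cell count matrix. The genes were taken by symbol, each symbol named 1 row, and each row's identifier matched that gene in the mouse annotation. All 7 were read one by one in 6 libraries, 3 from kidney and 3 from mammary tumor, with 1 library per condition in each tissue. Kidneys came from male C57BL/6 mice at 12 weeks of age, and tumors from female MMTV-PyMT mice at 10 weeks, in which the MMTV promoter drives the polyoma middle T oncogene in mammary epithelium. Every sample was minced and digested with 0.25% type I collagenase and sorted for viable cells before droplet capture. The 60 min control was digested with agitation and then pipetted and vortexed. The 15 min platform library holds the cells that left a microfluidic digestion and dissociation platform in its first interval, and the 60 min platform library holds the cells that left the same tissue load afterwards. The comparison asks how the family's transcripts differed between cells freed by the platform early, freed late, and freed by conventional digestion.

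AP-1 is a dimeric transcription factor. Jun proteins (Jun, Junb, Jund) pair with each other or with Fos proteins (Fos, Fosb, Fosl1, Fosl2) through a leucine zipper, and Fos proteins do not form stable pairs among themselves. Fos, Fosb, Jun and Junb are immediate early genes, transcribed within minutes of growth factor, stress or wounding signals without new protein synthesis, and tissue dissociation is a known trigger. Fosl1 and Fosl2 are usually induced later and more slowly, and Jund is expressed more steadily.

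The Fos branch lies on 4 chromosomes of the mm10 assembly (GRCm38). Fos, the founding member, spans chr12:85473890-85477273 on the plus strand, Fosb chr7:19302696-19310051 on the minus strand, Fosl1 chr19:5447547-5455946 and Fosl2 chr5:32135801-32157842, both on the plus strand. The longest transcript of each has 4 exons. In the Jun branch, the longest transcript of each gene has 1 exon. The branch holds Jun at chr4:95049034-95052222 and Junb at chr8:84974484-84978718 on the minus strand, and Jund at chr8:70698949-70700616 on the plus strand.

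Fos, Fosb, Jun and Junb, the immediate early members, carry most of the differences described below, and the sequence just before their start sites is given here for that reason. Sequences are from RefSeq (GRCm38.p6), 5′ to 3′ on the gene's strand, and 6 of the 7 members had an entry. The windows are chr12:85473640-85473889 (+) for Fos, chr7:19310052-19310295 (-) for Fosb, chr4:95052223-95052472 (-) for Jun and chr8:84978749-84978998 (-) for Junb, and the last 6 bases of the Fosb window were left out because they lie in an annotated exon. Capitals mark matches to the motifs described next.
Fos: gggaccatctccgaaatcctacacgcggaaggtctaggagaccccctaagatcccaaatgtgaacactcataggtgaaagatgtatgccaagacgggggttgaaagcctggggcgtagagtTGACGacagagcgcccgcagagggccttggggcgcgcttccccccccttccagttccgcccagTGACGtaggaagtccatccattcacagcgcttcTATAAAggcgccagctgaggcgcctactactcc
Fosb: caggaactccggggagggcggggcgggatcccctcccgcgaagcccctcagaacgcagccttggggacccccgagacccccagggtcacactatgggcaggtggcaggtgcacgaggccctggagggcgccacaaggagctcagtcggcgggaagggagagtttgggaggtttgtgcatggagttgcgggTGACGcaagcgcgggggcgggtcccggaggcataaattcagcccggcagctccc
Jun: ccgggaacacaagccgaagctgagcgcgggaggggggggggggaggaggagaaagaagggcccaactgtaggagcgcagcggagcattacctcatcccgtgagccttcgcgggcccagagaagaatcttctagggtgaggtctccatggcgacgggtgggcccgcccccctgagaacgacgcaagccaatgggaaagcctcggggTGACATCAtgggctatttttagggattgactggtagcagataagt
Junb: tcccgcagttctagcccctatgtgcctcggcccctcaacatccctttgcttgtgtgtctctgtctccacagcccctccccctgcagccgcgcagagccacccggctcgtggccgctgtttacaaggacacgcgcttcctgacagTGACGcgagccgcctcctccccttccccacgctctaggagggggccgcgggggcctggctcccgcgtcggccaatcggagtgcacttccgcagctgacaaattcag

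In the Fos sequence, the letters TGACG, the core of a cyclic AMP response element (CRE), begin at bases -129 and -66 counted from the RefSeq start, and TATAAA begins at -33. TGACG begins at -60 in Fosb and at -106 in Junb, and TGACATCA, a variant of the AP-1 site known from the Jun promoter, begins at -45 in Jun. Both strands were searched over the 250 bases before each start. TGACG or its reverse CGTCA was present in 17.8% of 32851 mouse promoters, TGACATCA or TGATGTCA in 2.93%, and TATAAA or TTTATA in 12.4%. The full CRE TGACGTCA, which contains the core, was in 1.55% of promoters, the AP-1 site TGACTCA or TGAGTCA in 4.46%, and the CArG box in 1.47%, and none of the 3 was found in the windows of the members searched. The windows searched include that of Fosl2, which lies wholly in annotated exons, and that of Jund. The Jund window ends at chr8:70697738, before the annotated gene start at 70698949. Sites farther than 250 bases from a start were not searched. These matches describe letters in a window, not bound sites.

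After limits on genes and mitochondrial share, 5886 to 9936 cells per kidney library and 5736 to 6024 per tumor library were kept, with a median of 4583 to 6611.5 UMIs (unique molecular identifiers, 1 per captured transcript end) per kidney cell and 8210.5 to 9476 per tumor cell. The kidney 15 min platform library had the highest median mitochondrial share, 20.4% against 7.38% in the control and 8.59% in the 60 min platform library. Cell barcodes shared by pairs of libraries made up at most 1.75% of the smaller library in kidney and 0.258% in tumor. A cell was placed in a class when at least 3 of the class's marker genes had a UMI and no second class passed. Proximal tubule cells were 46.7%, 84.7% and 27.8% of the kidney control, 15 min and 60 min platform libraries, and epithelial cells were 58.5%, 65.1% and 38.8% of the tumor libraries in the same order.

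Levels are a gene's summed UMIs scaled to counts per 1e6 UMIs of the cells considered (CPM). Because each condition has 1 library, no test of a condition was possible. Intervals in brackets are exact 95% intervals (Poisson for a level, binomial for a ratio or a share) and cover counting error only, not the spread between animals or runs. A difference was called when the levels differed at least 2-fold with at least 10 UMIs over both libraries and at least 20 cells in each, and the verbs rose and fell are kept for called differences. Both platform libraries are set against the same control library, so the 2 comparisons are not independent. Reads come from transcript ends, so levels of different genes are not compared.

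In whole kidney libraries, all 7 members fell in the 15 min platform library. Fos was at 702, 119 and 1775 CPM in the control, 15 min and 60 min platform libraries, a 5.89-fold decrease [5.74 to 6.05] at 15 min and a 2.53-fold increase [2.49 to 2.56] at 60 min. Jun, the main partner of Fos, was at 923, 210 and 2478 CPM, and Junb, a Jun protein with weaker activating capacity, at 886, 100 and 1436 CPM. For Fos, Jun and Junb alike, the 15 min library was the lowest and the 60 min library the highest. Jund moved least, from 1032 to 316 CPM (3.27-fold lower), with 1969 CPM at 60 min. Fosl2 was at 34.6, 3.08 and 47.1 CPM, and Fosb at 197, 26.2 and 437 CPM. Fosl1 had 52 UMIs in the control and none in the 15 min library, which places it at least 31.6-fold lower. Called 15 min decreases took 30.9% of all genes tested in whole kidney libraries and increases 2.49%, with no member among the increases. At 60 min, 3 members rose (Fos, Fosb and Jun) against 12% of genes tested, and no member fell, against 1.64%.

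The whole-library decrease moved with the makeup of the library. When each kidney library was rebuilt from its class levels at the control's class shares, the 15 min ratio was 1.29 for Fos, 1.07 for Jun, 0.693 for Fosb, 0.651 for Junb and 0.850 for Jund, none of them past 2-fold. Fosl2 (ratio 0.234) and Fosl1 (below 0.0335) stayed past it. The 15 min rebuild used 9 groups, each with at least 20 cells in both libraries, among them cells of no class or over 1 class. Dendritic, granulocyte and stromal cells were left out. Macrophages, 117 cells or 1.39% of the 15 min library, counted there at their share of the control. The 60 min ratios at control shares were 1.98 for Fos, 1.65 for Fosb and 1.93 for Jun, all short of 2-fold. Fos was also 1.99-fold, Fosb 1.63-fold and Jun 1.81-fold higher at 60 min when cells were kept whatever their upper gene number or mitochondrial share. Levels within classes are therefore the base of what follows.

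**Figure D1:**
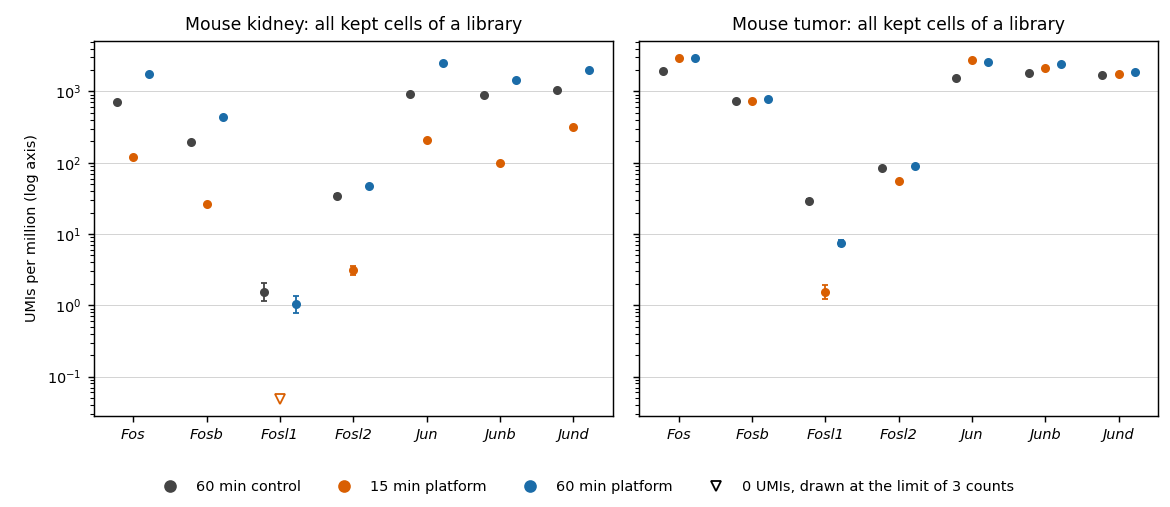
Level of each member in the 6 whole libraries, in CPM on a log axis, kidney on the left and tumor on the right, with bars for exact 95% Poisson intervals. The kidney 15 min library is the lowest of the 3 for all 7 members, and in tumor Fosl1 is the member with the lowest 15 min level relative to its control (1.55 against 29.1 CPM).

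Across kidney classes, 19 of 43 tested pairs of class and member fell in the 15 min platform library, against 7.73% of all tested pairs of class and gene, and 2 rose, against 5.17%. In the 60 min platform library, 7 of 63 pairs rose, against 7.5%, and 3 fell, against 3.59%. The share of pairs called was nearer to that over all genes at 60 min than for the decreases at 15 min.

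Proximal tubule cells, which reabsorb filtered solutes, had the lowest Fos levels of the kidney classes. Fos was at 103, 9.39 and 156 CPM in the control, 15 min and 60 min libraries, from 1875, 524 and 2859 UMIs. This was a 10.9-fold decrease at 15 min [9.91 to 12.1] and a ratio of 1.53 at 60 min. Junb went from 53.1 to 8.53 CPM at 15 min, 6.23-fold lower [5.58 to 6.97], and was at 75 CPM at 60 min. Jun was at 200, 58.7 and 567 CPM, and Fosb, a Fos protein with a full transactivation domain, at 24.7, 7.99 and 78.9 CPM. Jun and Fosb thus fell at 15 min (3.41-fold and 3.1-fold) and rose at 60 min (2.83-fold and 3.19-fold). Jund, at 310, 179 and 434 CPM, and Fosl2, at 2.41, 1.65 and 4.76 CPM, were not called in either comparison. The 4 of 6 tested members that fell compare with 5.82% of genes in these cells, and the 2 of 6 that rose at 60 min with 10.9%.

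The proximal tubule decrease depended in part on which cells were kept. With no upper bound on a cell's genes or mitochondrial UMIs, the 15 min ratio was 0.260 for Fos and 0.304 for Junb, still called, but 0.562 for Jun and 0.692 for Fosb, and the 60 min ratios fell short of 2-fold at 1.73 for Jun and 1.67 for Fosb. Mitochondrial genes took 14.7%, 22.7% and 17.3% of UMIs in proximal tubule cells of the 3 libraries. Summed endothelial markers, all 8 detected, were at 5.69, 3.98 and 22.3 CPM in the same cells, and distal nephron markers, all 10 detected, at 31.2, 8.49 and 68.7 CPM. Both lists had the order of Fos, lowest at 15 min and highest at 60 min. Macrophage markers were higher in these cells, at 267 CPM over the 3 libraries together, and their order by library is not given here. The part of any of these in the differences was not tested.

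Distal nephron cells (loop of Henle, distal convoluted tubule and collecting duct) showed part of this pattern at 15 min, on 110 cells. Fos was at 576, 175 and 606 CPM (3.29-fold lower at 15 min [2.67 to 4.09]) and Junb at 350, 102 and 320 CPM (3.43-fold lower [2.61 to 4.57]). Fosl2 was 3.43-fold lower on 2 UMIs at 15 min, with an interval of 0.806 to 30.7 that includes no difference. Jun, at 523, 263 and 479 CPM, was just short of 2-fold. The 3 of 6 members that fell compare with 13.7% of genes. Fos was at a ratio of 0.801 when each cell counted equally, and Fos (0.571) and Junb (0.564) were not called without the upper cell limits. Jun was called lower at 15 min in graph clusters (0.451). The 60 min values also moved. Without the upper cell limits, Fosb went from 1.25 to 0.455 and Jun from 0.917 to 0.464, both called lower. In graph clusters, Fosl2 went from 0.724 to 0.333 and was called lower. Macrophage markers were at 445 CPM in these cells over the 3 libraries together, and their part was not tested.

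Endothelial cells, which line vessels, had higher levels of all 4 immediate early members than proximal tubule cells in each library. Fos was at 2643, 1037 and 2971 CPM, Fosb at 1151, 345 and 999 CPM, and Junb at 2921, 1039 and 2440 CPM. All 3 fell at 15 min, by 2.55-fold [2.40 to 2.70], 3.34-fold [3.02 to 3.70] and 2.81-fold [2.65 to 2.98], and none was called at 60 min. Jun did not share this pattern: it was at 4621, 4130 and 6406 CPM, a 15 min ratio of 0.894 [0.865 to 0.923]. Jund was at 3382, 2402 and 3790 CPM. Fosl2 fell 2.58-fold at 15 min [1.79 to 3.81] from 70.3 to 27.3 CPM. Fosl1 had 16, 0 and 13 UMIs, at least 3.07-fold lower at 15 min and 4.8-fold lower at 60 min [2.16 to 10.8]. The 5 of 7 members that fell at 15 min compare with 5.24% of genes, and the 1 of 7 at 60 min with 1.82%. Summed proximal tubule markers in these cells were at 117, 189 and 187 CPM and distal nephron markers, 7 of 10 detected at 15 min, at 132, 22 and 162 CPM. Macrophage markers were at 1876 CPM in them over the 3 libraries together, and their order by library is not given here. The part of these lists in the differences was not tested.

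Kidney macrophages went the other way for Fos. Fos was at 1717, 4024 and 4955 CPM, a rise of 2.34-fold at 15 min [2.24 to 2.45] and 2.89-fold at 60 min [2.82 to 2.95]. Jun was at 1905, 3327 and 4519 CPM, short of 2-fold at 15 min (1.75) and 2.37-fold higher at 60 min, where Fosb also rose, from 372 to 830 CPM. Fos at 15 min was at 2.0-fold, just under the limit, with TMM factors in place of plain totals. Junb (2482, 2120 and 3347 CPM) and Jund (1890, 2109 and 3239 CPM) were not called. Fosl2 fell 7.61-fold at 15 min [2.94 to 28.1], from 49.8 to 6.55 CPM on 4 UMIs, and was back at 48.0 CPM at 60 min. Fosl1 had 17, 0 and 10 UMIs, and was 2.52-fold lower in the last library than in the first [1.09 to 6.15]. That Fosl1 value was short of 2-fold in graph clusters (0.520), with means over cells (0.637) and without the upper cell limits (0.516). It was also short in thinned cells (0.591), where so few of the 17 and 10 UMIs remain that the ratio says little. At 15 min 1 of 7 members fell (6.84% of genes) and 1 rose (8.53%), and at 60 min 1 fell (2.01%) and 3 rose (6.3%).

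The 15 min macrophages numbered 117, against 798 in the control and 1352 at 60 min. Summed proximal tubule markers were at 153, 264 and 186 CPM in them and distal nephron markers at 29.4, 11.5 and 110 CPM, and mitochondrial genes took 6.55%, 10.9% and 7.93% of their UMIs. B lymphocyte markers were at 253 CPM over the 3 libraries together, and their order by library is not given here. The part of any of these in the differences was not tested.

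Among kidney lymphocytes, Fos and Jun differed in opposite directions in B lymphocytes at 15 min. Fos was at 338, 1073 and 541 CPM (3.17-fold higher [2.79 to 3.61]) while Jun was at 758, 297 and 858 CPM (2.55-fold lower [2.20 to 2.97]). These 2 calls compare with 6.64% of genes higher and 6.17% lower. At 60 min Fosb rose 2.47-fold [1.87 to 3.29], against 5.15% of genes. Jund in B lymphocytes was at 2539, 2577 and 3968 CPM. Summed distal nephron markers in these cells were at 60.7, 24.0 and 99.4 CPM and proximal tubule markers at 521, 652 and 528 CPM. Dendritic cell markers were at 1188 CPM in them over the 3 libraries together, and their order by library is not given here. The part of these lists was not tested.

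T lymphocytes and natural killer (NK) cells shared lower Jun and Fosl2 at 15 min. In T lymphocytes, Jun was at 625, 242 and 573 CPM (2.58-fold lower [2.14 to 3.13]) and Fosl2 at 183, 24.2 and 267 CPM (7.54-fold lower [4.36 to 14.1]). In NK cells, Jun was at 583, 119 and 443 CPM (4.92-fold lower [3.02 to 8.39]) and Fosl2 at 420, 65.3 and 437 CPM (6.44-fold lower [3.39 to 13.5]). Neither gene was called at 60 min in these cells. Fosb was also lower in NK cells at 15 min, on few UMIs (2.95-fold [1.12 to 9.08]). Summed distal nephron markers were at 37.5, 0 and 77.3 CPM in T lymphocytes and 87.5, 11.9 and 245 CPM in NK cells. Over the 3 libraries together, dendritic cell markers were at 225 CPM in T lymphocytes and T lymphocyte markers at 598 CPM in NK cells. The order of these 2 by library is not given here, and the part of any of these lists was not tested. The 2 of 6 members in T lymphocytes compare with 8.34% of genes and the 3 of 6 in NK cells, which had 39 and 40 cells, with 10.5%.

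Fosl2, which encodes Fra-2, thus fell at 15 min in each of the 6 kidney classes where it was tested except proximal tubule (ratio 0.685). Smaller kidney classes were tested at 60 min only. In dendritic cells Fos was at 542 CPM in the control and 1429 CPM at 60 min (2.63-fold higher, 9.62% of genes), and Fosl2 at 201 and 81.1 CPM (2.48-fold lower, 6.53% of genes). Neither call was kept in classes made from graph clusters (1.88 and 0.707). Stromal cells had Fos at 7490 and 5730 CPM, and granulocytes had Fosl2 at 720 and 443 CPM, with no member called in either class. Jun in granulocytes turned direction at 60 min, from 0.763 by the marker gate to 2.20 in graph clusters, where it was called, and Fosb in T lymphocytes went from 0.940 to 2.27 there.

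**Figure D2:**
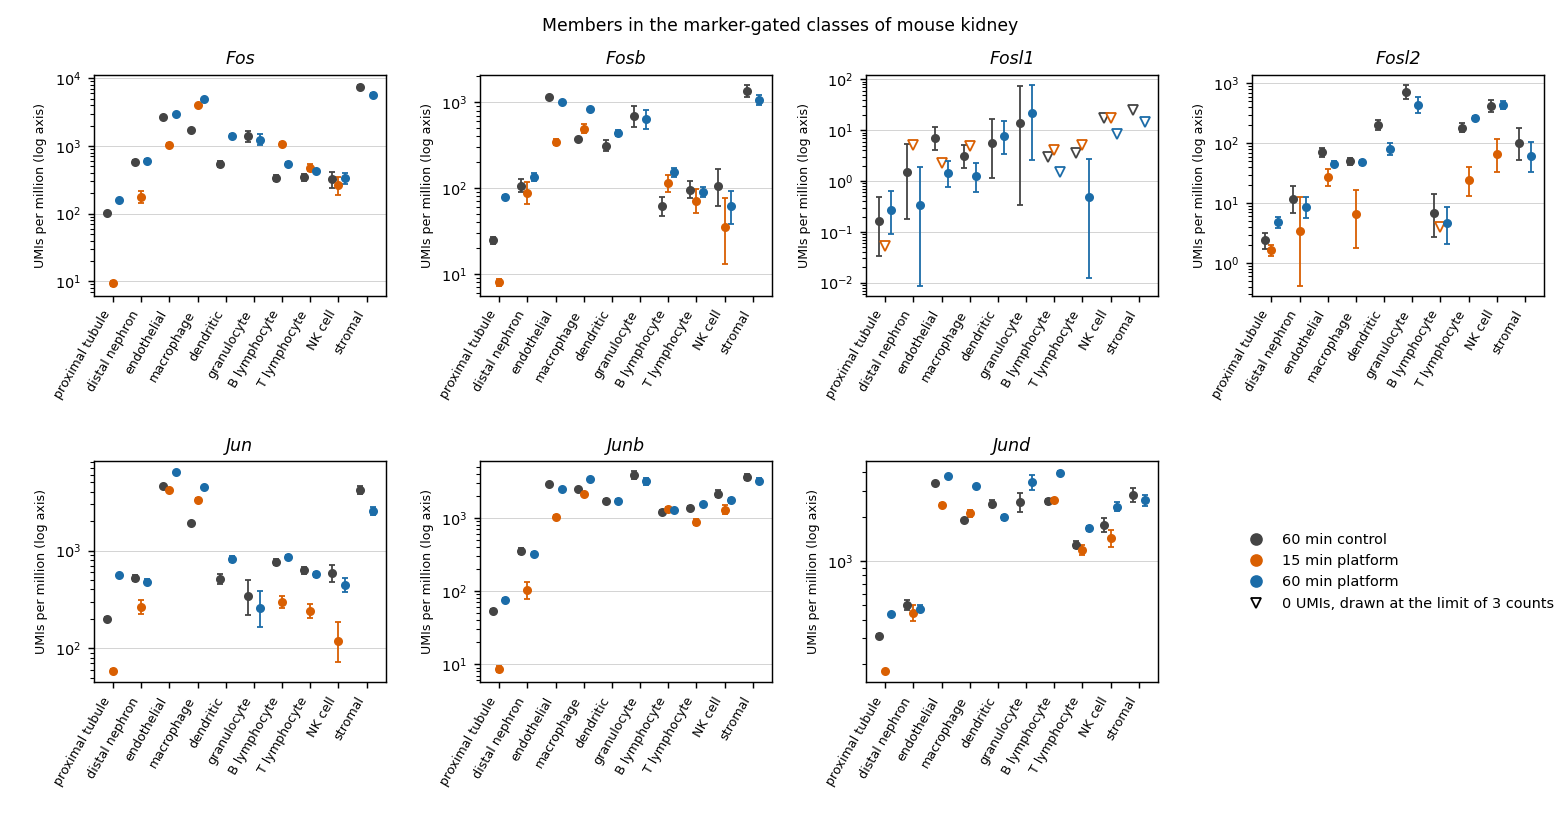
Level of each member by kidney class in CPM on a log axis, with 1 point per library and bars for exact 95% Poisson intervals. Proximal tubule cells lie below the other classes for Fos (9.39 to 156 CPM), and the 15 min platform point for Fos lies below the control in proximal tubule, distal nephron and endothelial cells and above it in macrophages and B lymphocytes.

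In whole tumor libraries, Fosl1 was the member called. Fosl1, which encodes Fra-1, a Fos protein without the transactivation domain of Fos, was at 29.1, 1.55 and 7.53 CPM in the control, 15 min and 60 min platform libraries, from 1476, 85 and 437 UMIs. It was 18.8-fold lower at 15 min [15.1 to 23.7] and 3.87-fold lower at 60 min [3.47 to 4.31]. Called decreases took 4.65% of genes at 15 min and 3.67% at 60 min. Fos was at 1946, 2970 and 2948 CPM and Jun at 1520, 2724 and 2585 CPM, both higher on the platform but short of 2-fold. No member rose in the whole tumor libraries, against 4.66% of genes at 15 min and 10.1% at 60 min. Of the others, Fosb was at 742, 724 and 791 CPM, Fosl2 at 84.3, 55.7 and 90.9, Junb at 1836, 2122 and 2419, and Jund at 1721, 1732 and 1891.

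Across tumor classes, 4 of 44 pairs of class and member fell at 15 min, against 5.32% of pairs of class and gene, and 9 rose, against 9.34%. At 60 min 2 of 46 fell, against 6.04%, and 6 rose, against 7.18%. The share that rose was above that over all genes in both comparisons, and the rises were in leukocytes.

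Tumor epithelial cells carried most Fosl1 UMIs. Their Fosl1 level was 41.2, 2.01 and 12.4 CPM, from 1226, 75 and 274 UMIs, which is 20.5-fold lower at 15 min [16.3 to 26.3] and 3.34-fold lower at 60 min [2.92 to 3.82]. Called decreases took 4.23% and 2.95% of genes in these cells. The other 6 members were not called there. Fos was at 2545, 2714 and 3272 CPM, Jun at 1968, 2608 and 2726, and Fosb at 909, 687 and 852. Junb was at 1649, 1791 and 1842 CPM, Jund at 2021, 1814 and 2075, and Fosl2 at 56.8, 43.9 and 49.5. No other member was thus called beside Fosl1 in the same cells. Summed proliferation markers in them were at 84.2, 35.1 and 83.8 CPM and granulocyte markers at 83.6, 48.3 and 81.5 CPM. Macrophage markers were far higher, at 1437 CPM over the 3 libraries together with a median of 12 UMIs per cell. Their order by library is not given here. Whether these UMIs are the cells' own, and the part of any of these lists in the differences, was not tested.

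With each cell thinned to 1000 UMIs, Fosl1 had a UMI in 2.68% of epithelial cells from the control [2.15 to 3.29]. On the platform, the share was 0.213% in the 15 min library [0.0921 to 0.420] and 1.17% in the 60 min library [0.773 to 1.70]. After thinning, a share this low follows the level of the gene and does not limit how many cells express it. Of the 88 thinned control cells with a Fosl1 UMI, 42.0% had Fos [31.6 to 53.0] and 75% had Junb [64.6 to 83.6], against 54.9% and 55.8% of cells without Fosl1. The interval for Junb lies above that of cells without Fosl1 [54.1 to 57.6], and the interval for Fos lies just below [53.2 to 56.6], as counts of cells within 1 library.

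Tumor macrophages had the largest rises of Jun. Jun was at 555, 3920 and 2553 CPM, 7.06-fold higher at 15 min [6.84 to 7.29] and 4.6-fold higher at 60 min [4.46 to 4.75]. Fos was at 842, 4649 and 2911 CPM, 5.52-fold higher [5.38 to 5.67] and 3.46-fold higher [3.37 to 3.55]. For both genes the 15 min library was the highest and the control the lowest. Fosb was at 481, 1046 and 788 CPM, called at 15 min (2.18-fold, or 1.85-fold with TMM factors). Junb (2225, 3424 and 3238 CPM) and Jund (1091, 1464 and 1482 CPM) were not called. Fosl1 went the opposite way, with 81, 2 and 71 UMIs, a 15 min ratio of 0.0258 [0.00307 to 0.0961] and a 60 min ratio of 0.462 [0.331 to 0.643]. The 60 min Fosl1 ratio was short of 2-fold in graph clusters (0.543) and with means over cells (0.528). Thinned cells could not decide either Fosl1 call, because few of the 81, 2 and 71 UMIs remain there. With at most 2 UMIs left at 15 min, the thinned ratio of 0.531 is not a measured level. The thinned 60 min ratio of 0.980 says little for the same lack of UMIs. At 15 min 3 of 7 members rose (12.1% of genes) and 1 fell (5.33%), and at 60 min 2 rose (6.55%) and 1 fell (3.62%).

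Those macrophages held 744, 835 and 1350 cells. Summed epithelial markers in them were at 185, 215 and 105 CPM and granulocyte markers at 56.1, 36.1 and 34.3 CPM, and mitochondrial genes took 5.40%, 5.85% and 5.32% of UMIs. Their part in the differences was not tested.

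Tumor granulocytes had the largest ratio of all. Fos was at 200, 3539 and 448 CPM, 17.7-fold higher at 15 min [14.2 to 22.2] and 2.24-fold higher at 60 min [1.57 to 3.17]. Junb was at 4150, 9351 and 5525 CPM and Jun at 353, 1158 and 372 CPM, called at 15 min only (2.25-fold and 3.28-fold). Fosl2 (268, 315 and 305 CPM) and Jund (1401, 1711 and 1294 CPM) were not called. The 3 of 6 members that rose at 15 min compare with 14.8% of genes, and the 1 of 7 at 60 min with 6.01%. These cells are shallow, with a median of 1702 to 1990 UMIs, and numbered 211, 91 and 56. Jun at 15 min was 1.51-fold higher in classes from graph clusters, and Junb 1.75-fold higher with TMM factors. Summed epithelial markers were at 675, 665 and 415 CPM, and their part in the differences was not tested.

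In tumor T lymphocytes, Fos, Jun and Fosb rose in both platform libraries. Fos was at 110, 633 and 371 CPM (5.74-fold higher at 15 min [4.66 to 7.12] and 3.36-fold at 60 min [2.73 to 4.17]). Jun was at 113, 263 and 435 CPM (2.32-fold [1.84 to 2.94] and 3.84-fold [3.13 to 4.74]), and Fosb at 73.9, 204 and 171 CPM (2.77-fold [2.09 to 3.69] and 2.32-fold [1.77 to 3.06]). Fos and Fosb were highest at 15 min and Jun at 60 min. The 3 of 6 members compare with 11.1% of genes at 15 min and 8.99% at 60 min. Jun in T lymphocytes thus rose in tumor and fell in kidney at 15 min, a difference between tissues that was not tested. Summed granulocyte markers in the tumor T lymphocytes were at 42.5, 5.97 and 5.83 CPM and NK cell markers at 130, 328 and 137 CPM. Epithelial markers were at 240 CPM in them over the 3 libraries together, and their order by library is not given here. The part of these lists was not tested.

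In tumor fibroblasts, Fosb and Fosl2 fell at 15 min. Fosb was at 1387, 473 and 1127 CPM, 2.93-fold lower at 15 min [2.43 to 3.53], and Fosl2 at 75.2, 34.9 and 73.6 CPM, 2.16-fold lower with an interval of 0.986 to 4.77. These 2 of 6 members compare with 5.72% of genes, and the Fosl2 ratio was 0.601 to 0.759 under 3 of the alternatives. In thinned cells the 15 min Fosl2 ratio was 0.308, on too few UMIs to be called. Fos was at 3183, 1981 and 3854 CPM and Jun at 3357, 1904 and 4499. Jun, at 0.567 in the main setting, was called lower at 15 min in thinned cells (0.302) and with means over cells (0.375). Junb was called lower with means over cells (0.444). At 60 min Fosl2 went from 0.978 to 0.432 in thinned cells and was called lower. The control held 24 fibroblasts. Summed basal epithelial markers in fibroblasts were at 32.9, 57.3 and 209 CPM and granulocyte markers at 32.9, 7.48 and 3.29 CPM. Macrophage markers were higher, at 926 CPM over the 3 libraries together, as were B lymphocyte markers at 419 CPM. The order of these larger lists by library is not given here. The part of any of these lists in the differences was not tested. Tumor endothelial cells had no called member, with Fos at 1985, 2075 and 2882 CPM and Jund at 1325, 1366 and 2359 CPM. Basal epithelial cells had no called member by the marker gate, but this depended on how the class was made. In graph clusters, Fos (2.41), Jun (2.26) and Junb (2.19) were called higher and Fosl2 (0.398) lower at 15 min. At 60 min, Fos (2.01) and Junb (2.10) were called higher there and Fosl1 (0.247) and Fosl2 (0.430) lower, where the gate gave 1.26 for Fos and 1.25 for Fosl1. Of the 28 gated basal epithelial cells at 15 min, 64.3% lay in the cluster of that name.

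**Figure D3:**
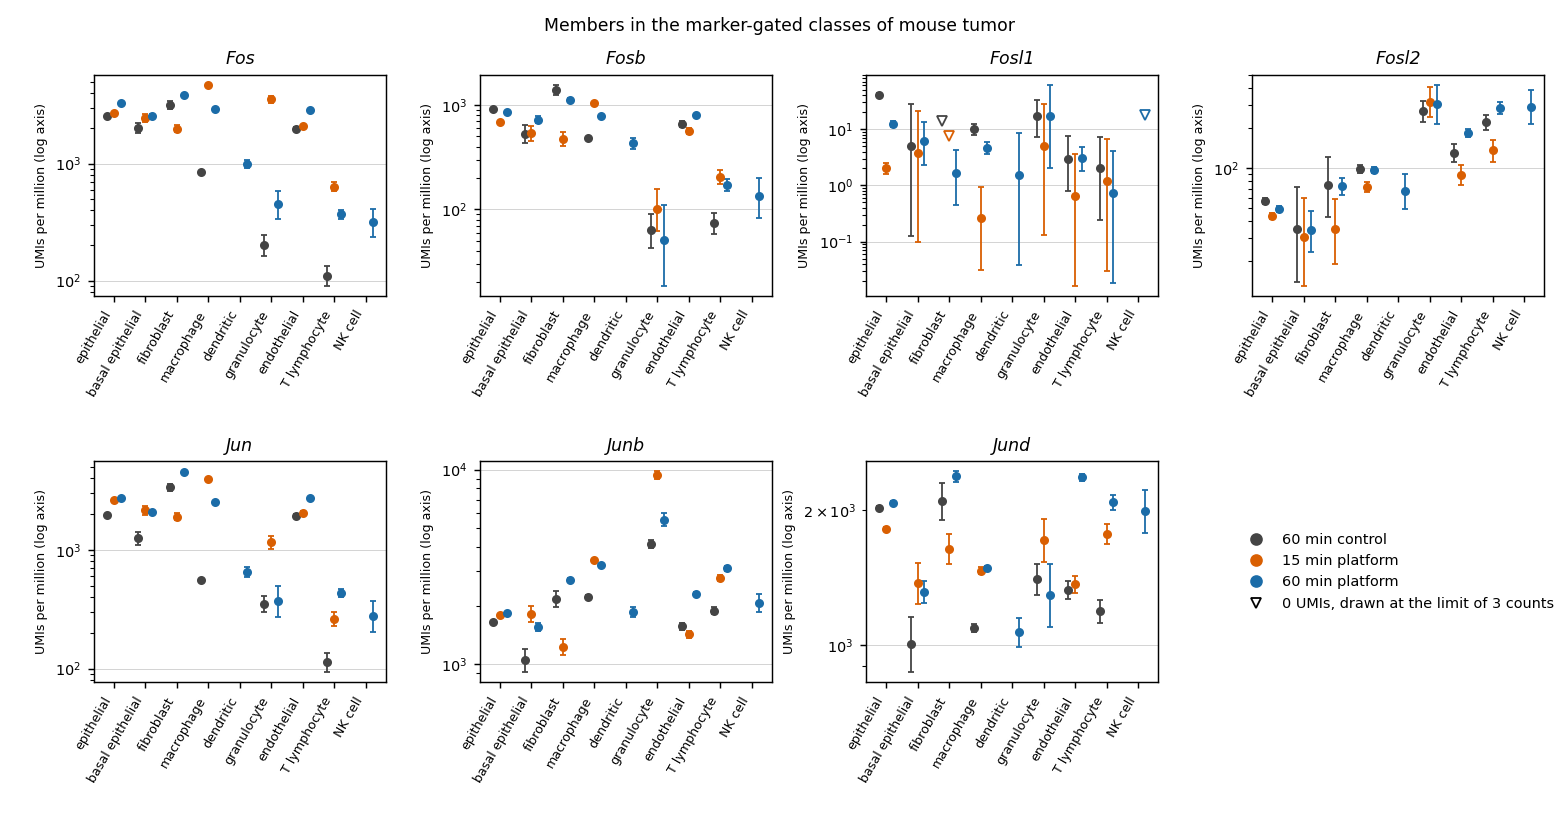
Level of each member by tumor class in CPM on a log axis, with 1 point per library and bars for exact 95% Poisson intervals. The Fosl1 points of epithelial cells run from 41.2 CPM in the control to 2.01 CPM at 15 min, while the Fos and Jun points of macrophages, granulocytes and T lymphocytes lie lowest in the control.

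**Figure D4:**
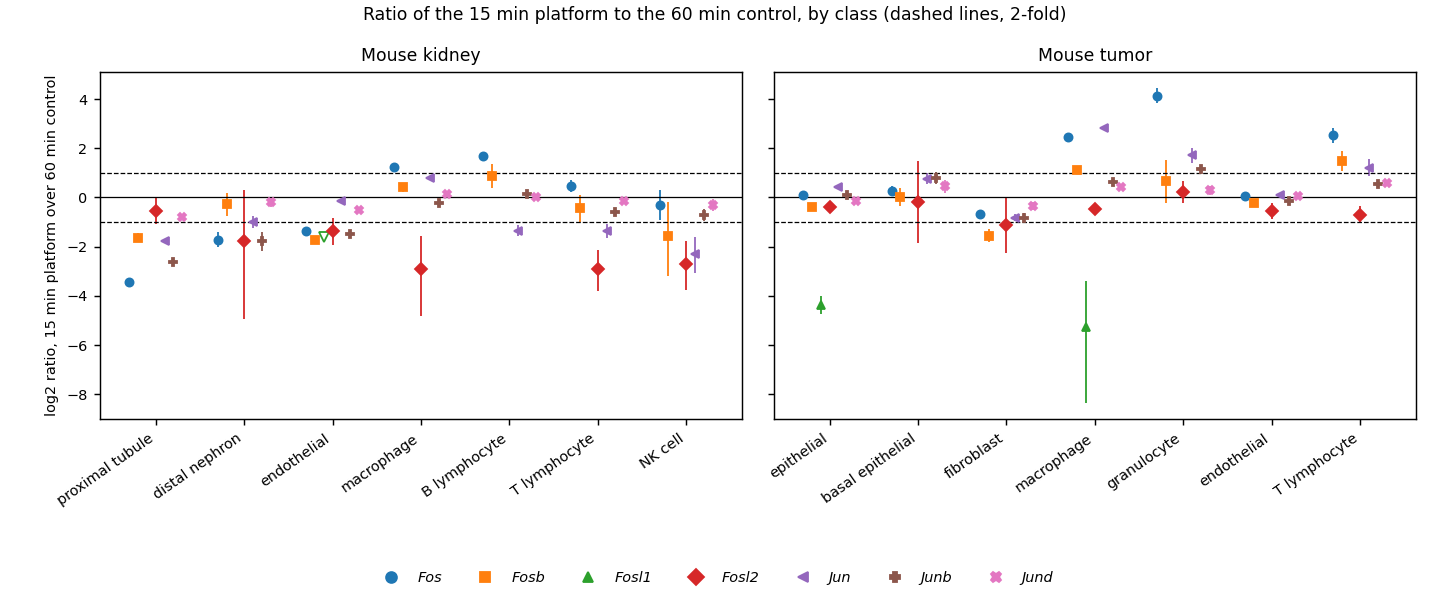
Ratio of the 15 min platform to the 60 min control level for each member and class, on a log2 axis with the kidney on the left and the tumor on the right, bars for exact 95% intervals and dashed lines at 2-fold. An open triangle is a bound from a count of 0. Kidney values run from the Fos ratio of 0.0915 in proximal tubule cells to 3.17 in B lymphocytes, and tumor values from 0.0258 for Fosl1 in macrophages to 17.7 for Fos in granulocytes.

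The split of the family's UMIs among its members also differed between classes. Jund took 44.8%, 67.5% and 33.0% of family UMIs in proximal tubule cells of the control, 15 min and 60 min libraries, and Jun 28.9%, 22.1% and 43.1%. Fos had 14.8%, 3.54% and 11.9% of them. Jund thus held most of the family's UMIs in proximal tubule cells at 15 min. In tumor macrophages, Junb took 42.0%, 23.5% and 29.2%, Fos 15.9%, 31.9% and 26.3%, and Jun 10.5%, 26.9% and 23.1%. In tumor granulocytes Junb held 64.3%, 57.8% and 69.0%, and Fos 3.1%, 21.9% and 5.60%. These are shares of 3′ end UMIs and do not rank protein.

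**Figure D5:**
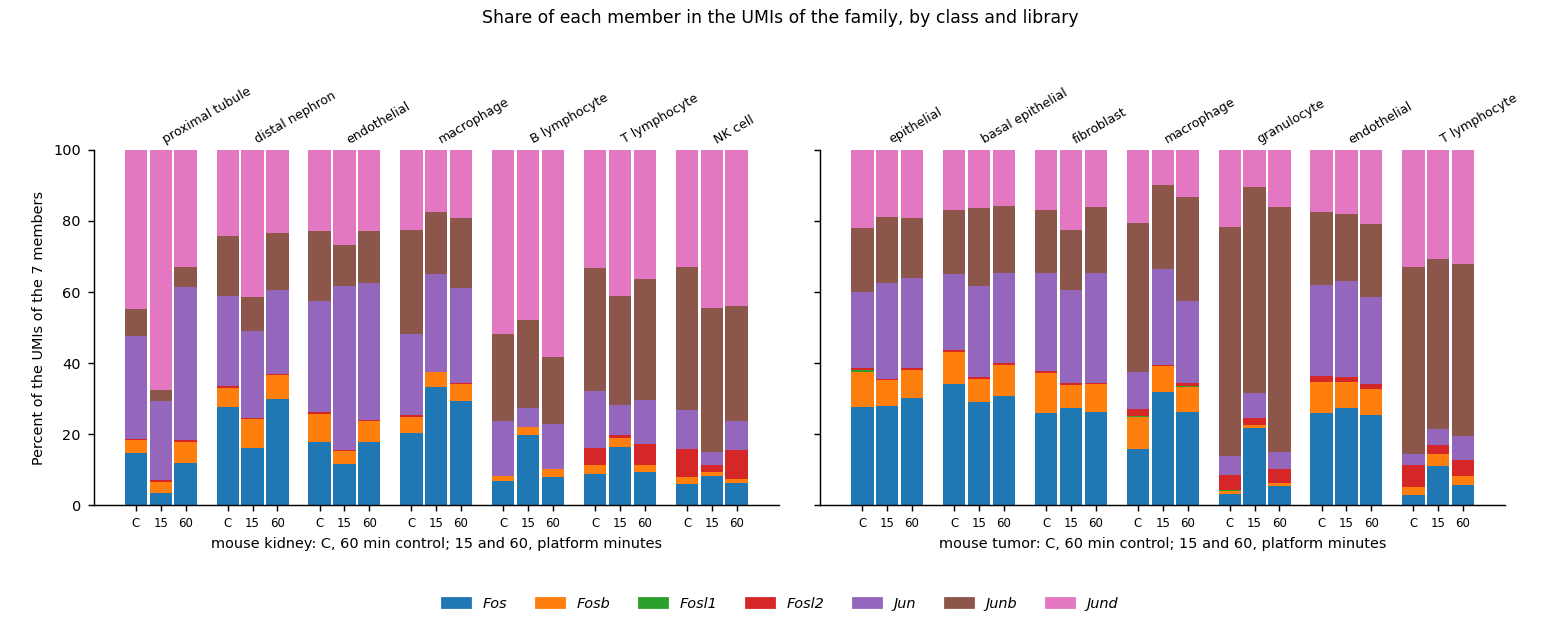
Share of the family's UMIs held by each member, in percent, by class and library. Jund has the largest share in proximal tubule cells at 15 min (67.5%), and Junb in tumor granulocytes of all 3 libraries (57.8% to 69.0%).

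Within classes, members were spread unevenly over cells. Of proximal tubule cells, 22.9%, 30.5% and 16.4% had no UMI of any member in the control, 15 min and 60 min libraries. In the control, the tenth of proximal tubule cells with the most Fos held 89.7% of Fos UMIs, with up to 58 in 1 cell. After thinning to 1000 UMIs, 7.41% of control cells had a Fos UMI [6.45 to 8.47]. The 15 min library had 0.523% [0.368 to 0.720] and the 60 min library 9.35% [8.27 to 10.5]. No class could be assumed to lack Fos, so no share can be set against a cell type without it, and the 15 min proximal tubule share is the lowest measured in a tested kidney class and bounds the share from free RNA there.

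Tumor macrophages were more even. At least 5 of the 7 members had a UMI in 67.3%, 80.8% and 83.9% of cells in the control, 15 min and 60 min libraries. In thinned cells, Fos was in 38.0%, 80.6% and 73.5% and Jun in 25.4%, 79.8% and 61.2%. The shares followed the levels in both genes. Jun was in 41.2% of control macrophages with Fos and 15.7% of those without it, and at 15 min in 91.3% and 32.5%. Proximal tubule control cells showed the same kind of pairing, with Jun in 61.3% of cells with Fos [54.2 to 68.1] and 7.60% of cells without it. In tumor epithelial control cells, it was 82.9% with Fos and 34.2% without it. These are counts over cells of 1 library each.

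Across 33 profiles of class and library with at least 100 cells, Fos and Fosb had the most similar levels of any 2 members (Pearson r of log2(CPM + 1) 0.947), followed by Fosb with Jun (0.901), Fos with Jun (0.898) and Junb with Jund (0.855). Fosl1 was least like the others, from 0.224 with Jund to 0.484 with Fosl2. The profiles share libraries and both controls, so the values describe these libraries. Among 6036 genes outside the family, Egr1, another immediate early transcription factor, was most like Fos (0.949), Fosb (0.933) and Jun (0.941). The next for Fos were Zfp36 (0.916), which encodes an mRNA-destabilizing protein, and Ier2 (0.887). Klf4 was among the 3 nearest for Fosb (0.904, with Rrbp1 at 0.886) and for Jun (0.881, with Rhob at 0.921). Junb was nearest to Ccnl1 (0.946), Btg2 (0.944) and Arpc1b (0.939), and Jund to Gm26532 (0.923), Klf2 (0.901) and Zfp36l1 (0.895). Fosl2 was nearest to Pvr (0.884), Ski (0.835) and Isg15 (0.829), and Fosl1 to Stk40 (0.815), Maff (0.801) and Map2k3 (0.775).

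Other genes of the pathway were read from 4 lists. In whole kidney libraries at 15 min, all 16 other immediate early genes fell (median ratio 0.138), as did 9 of 12 further bZIP relatives of AP-1 (0.152), 8 of 11 tested genes often used as AP-1 targets (0.222) and 2 of 14 upstream kinases and factors (0.569). These counts stand against 30.9% of all genes tested, whose median ratio was 0.731, and the 2 of 14 upstream genes are below that share. The lists were not rebuilt at the control's class shares, and the part of library makeup in these counts was not tested. The lowest were Nr4a2 (31.6-fold lower) and Ier3 (16.9-fold) among immediate early genes and Maff (27.7-fold) and Atf3 (26.2-fold) among relatives. Within proximal tubule cells 14 of 16 immediate early genes (median ratio 0.214) and 3 of 9 relatives fell, against 5.82% of genes, and within endothelial cells 9 of 15 immediate early genes (0.467), against 5.24%. Fewer did so in macrophages, 3 of 16 (0.943, against 6.84% of genes), and in B lymphocytes, 2 of 14 (1.07, against 6.17%). Of the targets, 3 of 8 fell in proximal tubule cells (median ratio 0.713) and 3 of 9 in macrophages (0.749). In distal nephron cells 1 of 4 targets fell (0.999, against 13.7% of genes), and in endothelial cells 0 of 6 (0.814). Relatives had medians of 0.783 in proximal tubule and 0.715 in endothelial cells, where 4 of 10 fell. At 60 min, whole kidney libraries had 6 of 16 immediate early genes higher, led by Egr1 (2.55-fold) and Klf4 (2.28-fold), 1 of 12 relatives (Atf3, 2.23-fold), 1 of 14 upstream genes (Elk3, 2.32-fold) and 2 of 12 targets (Il6, 3.06-fold, and Timp1, 2.03-fold). Against 12% of genes higher, the counts for relatives, upstream genes and targets are near the background.

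In whole tumor libraries at 15 min, the lists split. Of 12 targets, 6 fell (median ratio 0.484, against 1.16 over all genes), with Plaur, the urokinase receptor, 5.84-fold and the collagenase Mmp13 4.8-fold lower. Of 12 relatives, 4 fell, led by Maff (6.47-fold) and Jdp2 (4.23-fold), and 1 rose (Batf2, 2.33-fold). Of 16 immediate early genes, Ier2 (2.47-fold) and Egr1 (2.01-fold) rose and Nr4a2 fell (2.27-fold), and none of the 14 upstream genes was called. Over all genes, 4.65% fell and 4.66% rose. In tumor macrophages at 15 min, 7 of 16 immediate early genes rose and 1 fell, while 8 of 11 targets fell, against 12.1% of genes higher and 5.33% lower. At 60 min, 3 of 12 targets rose and 1 fell in whole tumor libraries, with Mmp3 at 13.4-fold and Il6 at 5.58-fold higher and Mmp9 3.44-fold lower. There, 2 of 16 immediate early genes rose (Klf2, 3.39-fold, and Dusp1, 2.58-fold), as did 2 of 12 relatives (Maf, 3.26-fold, and Batf3, 2.18-fold). Over all genes, 10.1% rose and 3.67% fell, and the counts for immediate early genes and relatives are close to the former.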

How the data were processed

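Kidney and tumor cell suspensions were profiled by 10x 3′ single-cell RNA sequencing in 6 libraries, 1 per condition and tissue. The authors made the deposited counts (UMIs of each gene in each cell, not normalized) with Cell Ranger 3.1.0 against mm10, and combined the libraries of a tissue with depth evened by subsampling reads. The second part of each cell barcode names its library. From these counts, cells with at least 200 genes and at most 3000 (kidney) or 4000 (tumor) genes, and at most 50% (kidney) or 25% (tumor) mitochondrial UMIs, were kept, as in the study. Classes were gated on marker lists, and the rule (3 markers with a UMI, no second class, except that epithelial with basal markers counted as basal epithelial) was set after seeing the data. Doublets were limited only by the upper gene limit and by leaving out cells that passed more than 1 class. The 7 members, 4 pathway lists and markers were chosen with earlier results of these data known, and motifs with the sequences in view.

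UMIs were summed by class and library. The members are always named, with the 3 genes most like each by Pearson r (at least 20 mean CPM, 100 cells per profile) and the 2 highest and 2 lowest of each list by ratio in the whole library. The alternatives were edgeR 4.0.16 TMM factors, totals without mitochondrial genes, cells thinned to 1000 UMIs, control class shares, graph clusters made without the members (2000 variable genes, 20 principal components, 20 neighbours, leidenalg 0.10.2 at resolution 0.5), means over cells, no UMI minimum and no upper cell limits. Python 3.11.15, NumPy 2.4.6, SciPy 1.17.1, pandas 2.3.3, scikit-learn 1.9.0 and matplotlib 3.10.9 were used. A count of 0 was taken to allow 3 counts.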

Additional observations from a re-analysis of the deposited data

Results flagged for a closer look

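These ratios of platform to control point past 2-fold in opposite directions for the same member, between classes, times or tissues, and each such difference was not tested. In kidney at 15 min, the Fos ratio was 3.17 in B lymphocytes and 2.34 in macrophages, against 0.392 in endothelial cells, 0.304 in distal nephron cells and 0.0915 in proximal tubule cells. In whole kidney libraries, the ratio was 0.170 at 15 min and 2.53 at 60 min for Fos, 0.133 and 2.22 for Fosb, and 0.227 and 2.69 for Jun. In proximal tubule cells, it was 0.323 at 15 min and 3.19 at 60 min for Fosb, and 0.293 and 2.83 for Jun. In tumor at 15 min, the Fosb ratio was 2.77 in T lymphocytes and 2.18 in macrophages, against 0.341 in fibroblasts. The Jun ratio in T lymphocytes at 15 min was 0.388 in kidney and 2.32 in tumor.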

How the results depend on the processing

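Of 64 called values, 60 were still called with TMM factors, 64 with totals outside the mitochondrial genome, 60 with means over cells, 64 with no UMI minimum and 51 with no upper cell limits. Thinned cells kept 55 of 62 that could be read, graph clusters 46 of 52, and control class shares 4 of 12 whole-library values. The values lost in thinned cells include both Fosl1 values of tumor macrophages, where too few UMIs remain to decide the call. Values called under an alternative alone numbered 18 in graph clusters (8 of them in tumor basal epithelial cells), 8 in thinned cells, 6 with means over cells, 5 with no UMI minimum, 3 with no upper cell limits, 1 with totals outside the mitochondrial genome and 0 under the others. At control class shares, 2 members were lower in whole kidney libraries at 15 min and 0 were higher at 60 min, and the ratios of Fos (1.29) and Jun (1.07) at 15 min turned direction. With no upper cell limits, 0 members were higher in whole kidney libraries at 60 min, and 4 pairs of class and member were higher in kidney at 60 min. With TMM factors, 1 pair was higher in kidney at 15 min. Pairs lower in tumor at 60 min numbered 1 with means over cells and 5 in graph clusters. The cause of these changes was not tested. The paper states, for its experiments in general, that the control and device conditions of a replicate used tissue of the same mouse. No paired analysis was possible because each condition had 1 library, and no replicate could be left out. Fosl1 and Fosl2 calls rest on few UMIs in kidney and, outside epithelial cells, in tumor, and small classes were limited by cell numbers.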
